A study of Mus musculus with 12 samples.

Results

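The 10 genes described here encode glutathione transferases and were read in B16F10 cells, a mouse melanoma line, in 12 RNA-seq libraries. They were chosen by gene symbol from the 27503 genes of the deposited table, with their counts and FPKM (fragments per kilobase and depth of the library) in the groups already known. The record of the choice does not say which of these values decided it, and it names no threshold. Levels and differences between the groups are therefore given as a description. The p-values printed come from a fit across all genes and are not independent evidence about these members.

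The members are the membrane-bound Mgst1, Mgst2 and Mgst3, the alpha-class Gsta2 and Gsta4, the mu-class Gstm1 and Gstm5, the pi-class Gstp1, the omega-class Gsto1 and the theta-class Gstt1. There were 4 groups of 3 libraries: cells with wild-type IRF7 and cells with IRF7-C435A, each as a control or after IFNα, an antiviral cytokine. IRF7 is a factor that drives interferon genes, and in C435A 1 of its cysteines is an alanine. The series title ties the study to S-nitrosylation of IRF7 and to the nitric oxide synthase NOS1. The sources used here do not state the dose and time of IFNα, how the mutant form was introduced, or the number of clones. A difference between the lines that is not due to the IRF7 form cannot be told apart from one that is. No label says that replicates were separate cultures, so each p-value measures spread among these libraries only, and that spread may be technical.

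Glutathione transferases join the thiol of glutathione to electrophilic compounds, which makes drugs, carcinogens and products of lipid peroxidation more soluble and easier to export. The cytosolic classes act as dimers, while Mgst1, Mgst2 and Mgst3 belong to the membrane-bound MAPEG proteins, relatives of leukotriene C4 synthase. Several members of the family are known targets of NRF2, the transcription factor of the oxidative and electrophile stress response, which binds antioxidant response elements. Glutathione transferases of tumour cells have long been studied for their part in resistance to alkylating drugs.

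All 10 members passed the low-count filter of the test, and 8 of them, without Gsta4 and Mgst2, also passed the FPKM filter of at least 1 in at least 3 libraries. Library totals ran from 60511573 to 75927461 counts. All 8 melanocyte genes checked for the labelled cell type were present in each library, with a summed level of 7170 to 9580 CPM, counts scaled to library sizes with TMM factors. The targeted gene Irf7 was at 12.3 FPKM in wild-type control and 4.87 in C435A control. The fitted log2 difference was -1.23 ± 0.17 (SE, edgeR adjusted p = 0.0057). After IFNα it was at 9.05 FPKM in wild type and 5.52 in C435A, a difference of -0.62 ± 0.17 (adjusted p = 0.113). The change of Irf7 with IFNα was -0.45 ± 0.17 in wild type (adjusted p = 0.798) and 0.16 ± 0.17 in C435A (0.791). These levels do not test the amino acid change. Transcripts of 7 lung genes, among them the surfactant genes Sftpc and Sftpa1, summed to 38.8 to 60.9 CPM in 8 libraries. These were wild-type control 1, all wild-type IFNα and C435A control libraries, and C435A IFNα 3. The sum was at most 0.156 CPM in the other 4. Erythroid genes summed to 6.78 to 30.8 CPM in the same 8 libraries and to at most 0.226 in the other 4. Fibroblast and endothelial genes summed to 37.3 to 81.5 CPM and to 28.2 to 33.6. Sums of leukocyte and of liver genes overlapped between the 2 kinds of library. The source of these transcripts was not tested. Because this split is uneven over the groups, fits that take it into account are given below for Mgst1, Mgst2, Gsta2 and Gsta4. For the other members such values are printed only where a sign turned. For genes outside the members none are printed, so their differences are not adjusted for the split.

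Windows of 300 bases around the annotated starts of Mgst1 and Gsta2 are shown, since these are the members whose levels differed most clearly between the lines. They come from RefSeq on GRCm38.p6, run 5′ to 3′ on the strand of the gene, and hold 250 bases before and 50 after the start. Of the 10 members, 9 matched an entry, with 11 windows. Capitals mark matches on either strand to TGACNNNGC, the core of the antioxidant response element, or to the TATA box letters TATAAA. The Mgst1 window is chr6:138140277-138140576 on the plus strand and the Gsta2 window is chr9:78347096-78347395 on the minus strand.
Mgst1: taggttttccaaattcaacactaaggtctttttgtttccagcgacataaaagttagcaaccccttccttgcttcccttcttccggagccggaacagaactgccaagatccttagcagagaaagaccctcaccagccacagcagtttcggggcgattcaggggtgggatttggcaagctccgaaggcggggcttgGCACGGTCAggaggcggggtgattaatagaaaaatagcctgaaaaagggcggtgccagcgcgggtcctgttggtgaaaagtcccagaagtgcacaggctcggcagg
Gsta2: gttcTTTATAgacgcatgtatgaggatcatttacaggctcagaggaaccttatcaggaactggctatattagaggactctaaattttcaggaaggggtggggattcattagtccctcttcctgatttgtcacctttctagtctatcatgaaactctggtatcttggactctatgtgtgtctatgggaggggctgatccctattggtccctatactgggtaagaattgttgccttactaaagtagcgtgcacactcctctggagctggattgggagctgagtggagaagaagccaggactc

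The printed Mgst1 window held 1 match to the antioxidant core, GCACGGTCA on the opposite strand, at position -56 from the start. A second annotated start of Mgst1, with its window at chr6:138141337-138141636, held none. The Gsta2 window held none either, and its only capitals are a TATAAA match on the opposite strand at position -246. The other member with a match to the antioxidant core was Gstm5, with TGACCACGC at position -42. Over 32851 promoter windows of the same length, 12.4% held TGACNNNGC and 13.6% held TATAAA. The interferon-stimulated response element was found in 3.44% of windows and, among the members, in that of Gstt1 (TTTCCCTTTC at position -185). The only overlap between motifs was the TATAAA match of Mgst2, which was found on both strands at positions -34 and -32. A match is a description of letters and shows no binding.

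Levels per length spanned more than 3 orders of magnitude on the FPKM scale, and 1 gene held most of the signal. Gstp1, whose enzyme is the main glutathione transferase of many tumours, averaged 848 FPKM (range 772 to 976), the 99.5th percentile of the 17590 genes tested. It made up 85% of the summed FPKM of the members. Gsto1, whose enzyme also reduces dehydroascorbate and methylated arsenic, was next at 48.7 FPKM (42.4 to 54.8). Gstm5 averaged 29.7 FPKM and Mgst3 29.3, with ranges of 24.9 to 35.3 and 23.9 to 34.6, so these neighbours did not differ beyond their spread. Gstm1 followed at 18.9 FPKM (15.8 to 24.4) and Mgst1 at 15.8 (8.44 to 26.2), and their order depended on the line. In wild type Mgst1 averaged 21.3 FPKM and Gstm1 19.9, with overlap. In C435A no Mgst1 library exceeded 12.6 FPKM and no Gstm1 library was below 15.8. Gsta2 averaged 4.63 FPKM (2.15 to 6.6). The 3 lowest were Gstt1 at 1.27 FPKM, Gsta4 at 0.644 and Mgst2 at 0.229, and their ranges overlapped from each to the next. Spread within groups was 5.91% (coefficient of variation) for Gstp1 and reached 32.8% for Gstt1, 37.1% for Mgst2 and 54.3% for Gsta4. The last 2 rested on 30 to 124 and 20 to 124 counts a library.

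**Figure D1:**
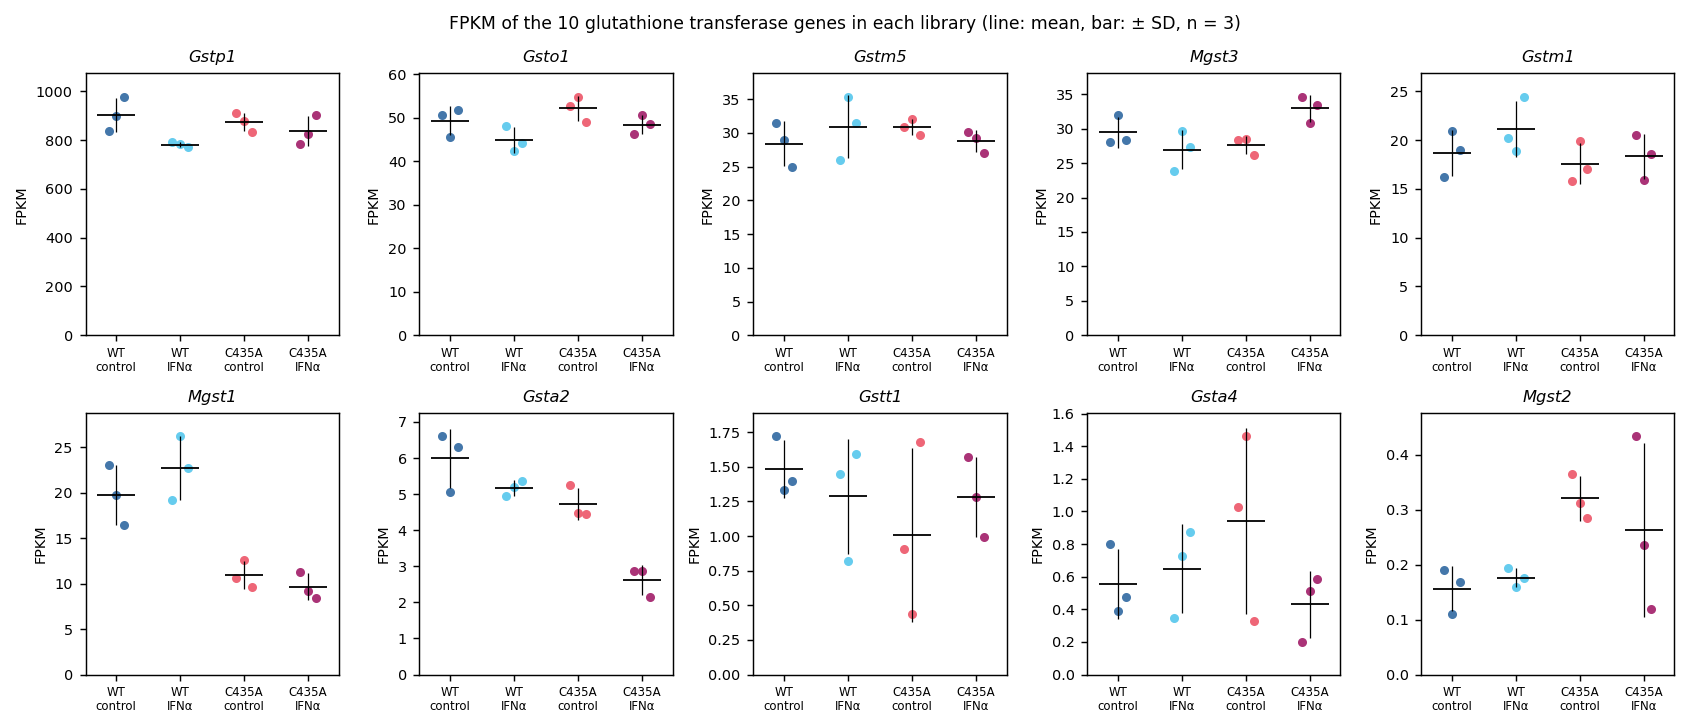
FPKM of the 10 members in each of the 12 libraries, 1 panel a gene, with the 4 groups along the horizontal axis. Points are libraries, and bars give the group mean and SD; the Mgst1 points of the C435A groups, 8.44 to 12.6 FPKM, all lie below the wild-type points, 16.5 to 26.2 FPKM.

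Several genes of the family outside the list were as abundant as its upper members. Gstp2 averaged 173 FPKM, Gstm2 52.9, Gsta1 52.2 and the mitochondrial and peroxisomal kappa-class Gstk1 49. Near-identical copies matter for what the members' values count. In the annotated transcripts (GENCODE M21), 49.8% of the 50-base windows of Gsta2 and 19.6% of its 150-base windows also occurred, letter for letter, in another gene. For 50 bases these were mainly Gsta1 (36%), Gsta5 (31.8%) and Gm3776 (26.9%). Gstp1 shared 33.7% of its 50-base windows and 17.6% of its 150-base windows with Gstp2. It shared 20.3% and 7.51% with Gstp-ps, which averaged 80.3 FPKM (66.4 to 136). Gstm1 shared 18.9% of its 50-base windows and none of 150 bases. Mgst2 shared 0.237% at 50 bases, and the other 6 members shared none. The levels of Gsta2, Gstp1 and Gstm1 are uncertain to the extent that the authors' counting could divide such reads. Gstm5 also overlaps the antisense gene 4933431E20Rik over 393 bases, at 0.953 FPKM, and Mgst2 overlaps Gm37261 on its own strand over 1101 bases, at 0.0124 FPKM.

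Mgst1 was the member with the clearest difference between the lines, and it was lower with IRF7-C435A. It encodes the microsomal enzyme of the liver and many other cells, which has both transferase and peroxidase activity towards lipid hydroperoxides. Its deposited position is chr6:138117314-138133753 on the plus strand (ENSMUSG00000008540). Deposited positions, here and for the other members, differ from the RefSeq positions on GRCm38.p6 used for the windows and were not converted. The wild-type control libraries held 23.1, 19.7 and 16.5 FPKM, and the C435A control libraries 10.6, 12.6 and 9.61. After IFNα the wild-type libraries held 19.2, 26.2 and 22.7 FPKM and the C435A libraries 11.3, 9.17 and 8.44. No C435A library reached the lowest wild-type one in either treatment. The group means were 19.8 ± 3.3 (SD, n = 3), 22.7 ± 3.46, 10.9 ± 1.54 and 9.62 ± 1.47 FPKM in wild-type control, wild-type IFNα, C435A control and C435A IFNα. In these bulk samples, fewer cells with the RNA and less RNA per cell cannot be told apart.

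Over both treatments Mgst1 fell 1.95-fold in C435A against wild type (log2 difference -0.96 ± 0.14, SE, edgeR quasi-likelihood test, adjusted p = 0.00234). This call held in all 23 alternative fits, in which the difference ran from -1.19 to -0.88 and the highest adjusted p was 0.0112. After IFNα alone the log2 difference was -1.16 ± 0.19 (adjusted p = 0.0163, 95% interval -1.57 to -0.75), a fall of 2.23-fold. That call was lost without wild-type IFNα 2 (-1.02, adjusted p = 0.0736), wild-type IFNα 3 (-1.13, 0.0743) or C435A IFNα 2 (-1.11, 0.0584). Over all genes, the same comparison gave 21, 24 and 43 calls in these fits, against 105 in the main fit. In control cells the log2 difference was -0.77 ± 0.19 and did not pass in edgeR (adjusted p = 0.151), while it passed in DESeq2 (adjusted p = 0.0124) and in limma (-0.80, adjusted p = 0.0417). The limma fit had no TMM scaling, and its median over all genes in this comparison was -0.089. The line differences with and without IFNα were not distinguished from each other (interaction -0.39 ± 0.27, adjusted p = 0.916). IFNα itself gave log2 changes of 0.18 ± 0.19 in wild type (adjusted p = 1) and -0.21 ± 0.19 in C435A (0.742).

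Of the wild-type control libraries, number 1 has lung transcripts and the highest Mgst1 level, 23.1 FPKM. Of the C435A IFNα libraries, number 3 has them and the lowest, 8.44 FPKM. With a term for these libraries in the fit, the difference after IFNα was -1.08 (adjusted p = 0.0766) and the one over both treatments -0.96 (0.00315). Among the 8 libraries with lung transcripts alone, the differences were -1.33 (adjusted p = 0.0165) and -1.19 (0.00696). That fit holds 1 library of wild-type control and 1 of C435A IFNα, each assumed to vary like the other groups.

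Mgst2, which can make leukotriene C4 in tissues without leukotriene C4 synthase, was the lowest member in FPKM, with 30 to 124 counts a library. Its deposited position is chr3:51567781-51590096 (ENSMUSG00000074604). Control libraries held 0.19, 0.11 and 0.168 FPKM in wild type and 0.365, 0.312 and 0.284 in C435A, with no overlap. After IFNα the wild-type libraries held 0.193, 0.16 and 0.176 FPKM, and the C435A libraries spread over 0.433, 0.236 and 0.119. The log2 difference between the lines was 1.1 ± 0.42 in control cells (unadjusted p = 0.0191, adjusted p = 0.375) and 0.87 ± 0.29 over both treatments (adjusted p = 0.129). Neither passed, except that the second did without C435A IFNα 3, the library at 0.119 FPKM (1.04, adjusted p = 0.0373). Among the 8 libraries with lung transcripts the differences were 0.73 in control cells, -0.45 after IFNα and 0.14 over both treatments (adjusted p = 0.865 for the last). With the lung term they were 1.27, 0.4 and 0.83 (adjusted p = 0.148 for the last).

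Mgst3, a membrane-bound enzyme with peroxidase activity at chr1:167199535-167221410 (ENSMUSG00000026688), was at least 23.9 FPKM in every library. The C435A IFNα libraries held 34.6, 30.8 and 33.5 FPKM, above all wild-type IFNα libraries (23.9, 29.6 and 27.4) and above all C435A control libraries (28.4, 28.5 and 26.2). Wild-type control libraries held 28.1, 32 and 28.3 FPKM. The log2 difference between the lines after IFNα was 0.37 ± 0.13 (unadjusted p = 0.0144, adjusted p = 0.225) and the change with IFNα in C435A 0.23 ± 0.13 (adjusted p = 0.575). Neither passed the threshold in any fit run. Over the 23 alternative fits they ran from 0.25 to 0.47 and from 0.19 to 0.29. C435A IFNα 1 and 2 lack lung transcripts, whereas all libraries of wild-type IFNα and C435A control have them. The 3 membrane-bound members thus gave a passed difference for Mgst1 alone, and differences between them were not tested.

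The alpha-class members are known for reducing lipid hydroperoxides and for acting on hydroxynonenal, an aldehyde of lipid peroxidation. Gsta2 (ENSMUSG00000057933, chr9:78238300-78263070) was lowest in C435A cells given IFNα. The C435A IFNα libraries held 2.86, 2.88 and 2.15 FPKM. Its counts ran from 167 to 590 over all libraries. The C435A control libraries held 5.25, 4.49 and 4.46 FPKM. Wild-type control libraries held 6.6, 5.07 and 6.31 FPKM and wild-type IFNα libraries 4.94, 5.21 and 5.36. All 3 C435A IFNα libraries were below the other 9, whereas the other 3 groups overlapped one another. The group means were 5.99 ± 0.811 (SD, n = 3) and 5.17 ± 0.216 FPKM in wild type, and 4.73 ± 0.45 and 2.63 ± 0.412 in C435A, control before IFNα.

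After IFNα, Gsta2 fell 1.85-fold in C435A against wild type (log2 difference -0.89 ± 0.17, SE, edgeR adjusted p = 0.0351, 95% interval -1.26 to -0.51). Over both treatments it fell 1.48-fold (-0.56 ± 0.12, adjusted p = 0.0271). In control cells the difference was -0.24 ± 0.17 (adjusted p = 0.642). The interaction was -0.65 ± 0.24 (unadjusted p = 0.0192, adjusted p = 0.916), so the difference between the treatments did not pass. The change with IFNα in C435A was -0.87 ± 0.17, with an adjusted p of 0.181 in edgeR, above the threshold, and of 0.0064 in DESeq2, below it. In wild type it was -0.22 ± 0.17 (adjusted p = 1).

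The Gsta2 calls were less stable than that of Mgst1 over both treatments. After IFNα the call was lost in 10 of 12 fits that left out 1 library, with differences of -0.97 to -0.77 over the 12 and adjusted p up to 0.163. It held without wild-type control 1 and without wild-type control 3. It was also lost with the replicate number as a block (-0.9, adjusted p = 0.0726), without the low-count filter (adjusted p = 0.059) and with the lung term (-0.89, 0.0883). Calls over all genes in this comparison were 105 in the main fit and 21 to 112 in the fits without 1 library. Over both treatments the call was lost on leaving out control library 1 or 3 or IFNα library 2 or 3 of wild type, or control library 2 or 3 of C435A, with adjusted p from 0.0508 to 0.0813. It held with the lung term (-0.56, adjusted p = 0.0304). Among the 8 libraries with lung transcripts alone the differences were -1.16 after IFNα and -0.8 over both, and the change with IFNα in C435A was -1.14. In that fit C435A IFNα is 1 library, number 3, which has the lowest Gsta2 level, 2.15 FPKM. These 3 values therefore carry no measure of spread for that group.

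The close copies of Gsta2 were read beside it. Gsta1 was at 43.8, 40.3 and 34 FPKM in the C435A IFNα libraries and at 44.7, 70.6 and 62.2 in the wild-type IFNα libraries. The C435A control libraries held 56.1, 52.4 and 48.9 FPKM and the wild-type control libraries 63.6, 59.8 and 49.9. Every C435A IFNα library of Gsta1 was thus below every other library, as for Gsta2. The log2 difference of Gsta1 between the lines after IFNα was -0.51 ± 0.19 (edgeR adjusted p = 0.244). Its change with IFNα in C435A was -0.44 ± 0.19 (adjusted p = 0.456), and neither passed. Gsta5 was at 0.616 to 1.06 FPKM over the C435A libraries and 1.28 to 2.09 over the wild-type ones, a log2 difference of -0.78 ± 0.21 over both treatments. Its adjusted p was 0.0618 in edgeR, 0.0275 in DESeq2 and 0.0159 in limma, where the median over all genes was -0.087. Gsta2 as a share of Gsta1 FPKM was 6.67% ± 0.424 (SD, n = 3) in C435A IFNα, against 10.5% ± 2.11 in wild-type control, 9% ± 1.84 in wild-type IFNα and 9.01% ± 0.419 in C435A control. The C435A IFNα libraries reached 7.15% and the lowest other library was at 7.38%. How reads were divided between these copies was not tested.

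**Figure D2:**
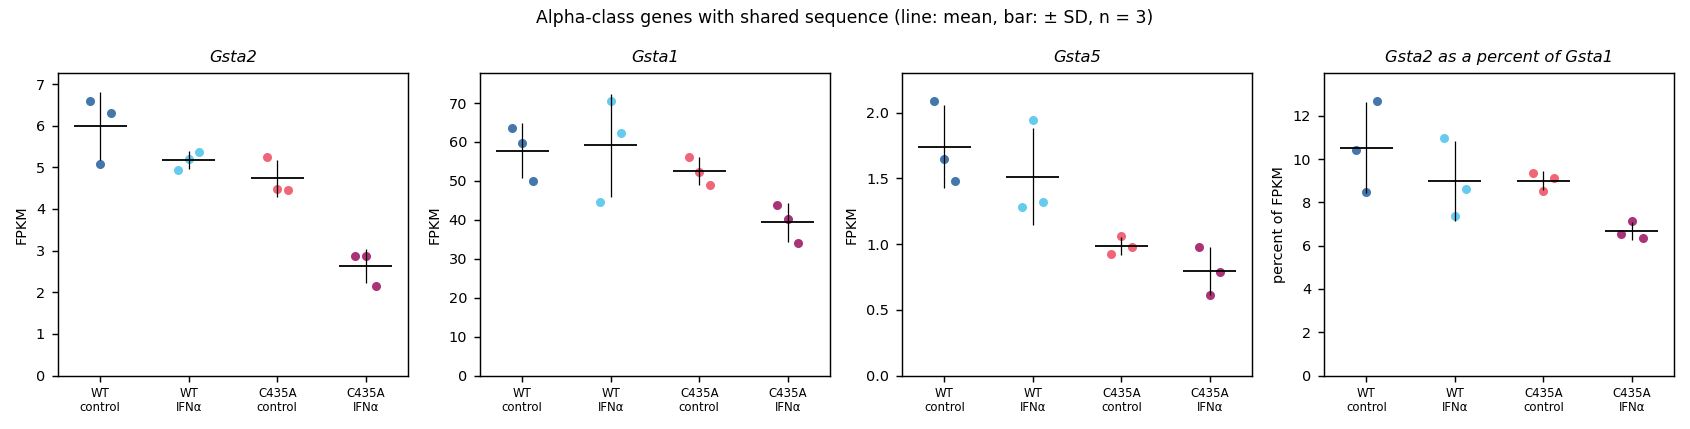
FPKM of Gsta2, Gsta1 and Gsta5, and Gsta2 as a percentage of Gsta1, in each library of the 4 groups, with group mean and SD. In C435A IFNα, Gsta2 lies at 2.15 to 2.88 FPKM and Gsta1 at 34 to 43.8 FPKM, each below its values in the other 9 libraries.

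Gsta4, whose enzyme conjugates hydroxynonenal, lies at chr9:78090056-78116631 (ENSMUSG00000032348) and ranged from 0.197 to 1.46 FPKM with overlap between the compared groups. C435A control libraries alone spread over 1.03, 1.46 and 0.331 FPKM. The change with IFNα in C435A was -1.14 ± 0.57 on the log2 scale (adjusted p = 0.511), and the interval, -2.36 to 0.08, leaves the size undetermined. Its values were 0.331 to 1.46 FPKM in libraries with lung transcripts and 0.197 to 0.511 in those without. The change with IFNα in C435A was -0.6 with the lung term (adjusted p = 0.774) and -0.69 among the 8 libraries (0.646).

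The mu-class members conjugate epoxides and quinones, among other compounds. Gstm1 (chr3:107919571-107925289, ENSMUSG00000058135) had group means of 18.7 ± 2.35, 21.2 ± 2.86, 17.6 ± 2.12 and 18.3 ± 2.31 FPKM (SD, n = 3, in the order used for Mgst1). Gstm5 (chr3:107803137-107806002, ENSMUSG00000004032) had means of 28.4 ± 3.29, 30.9 ± 4.63, 30.8 ± 1.15 and 28.8 ± 1.6 FPKM. The compared groups of both genes overlapped. The log2 difference between the lines over both treatments was -0.05 for Gstm1 (95% interval -0.29 to 0.18) and 0.09 for Gstm5 (-0.14 to 0.33), and neither gene passed in any comparison.

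Gstp1 (chr19:4085407-4087985, ENSMUSG00000060803) differed little in relative terms at its high level. Wild-type control libraries held 836, 897 and 976 FPKM and wild-type IFNα libraries 790, 782 and 772, without overlap. Of these, wild-type control 2 and 3, at 897 and 976 FPKM, lack lung transcripts. C435A control libraries held 910, 876 and 834 FPKM and C435A IFNα libraries 783, 824 and 902, with overlap. The change with IFNα in wild type was -0.22 ± 0.10 (unadjusted p = 0.0497, adjusted p = 0.917) and in C435A -0.08 ± 0.10 (adjusted p = 0.817). Over the 23 alternative fits the change in wild type ran from -0.27 to -0.17. Between the lines the log2 difference over both treatments was 0.12 (95% interval -0.03 to 0.28). Gstp2 held 18.2 to 21.2% of the Gstp1 FPKM in every library, a ratio that varied less than the levels of Mgst1 or Gsta2.

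Gsto1 (chr19:47843409-47853229, ENSMUSG00000025068) had group means of 49.4 ± 3.24, 44.9 ± 2.92, 52.2 ± 2.97 and 48.5 ± 2.16 FPKM, with overlap between the compared groups. Its log2 difference between the lines over both treatments was 0.19 ± 0.07, which did not pass in edgeR (adjusted p = 0.145) or limma (0.09, adjusted p = 0.398) and passed narrowly in DESeq2 (0.0486). Gstt1, whose enzyme acts on small halogenated compounds, lies at chr10:75619647-75634418 (ENSMUSG00000001663) and ranged from 0.439 to 1.72 FPKM on 45 to 200 counts. Its groups overlapped in every comparison, and the log2 difference over both treatments was -0.18 with a 95% interval of -0.78 to 0.41.

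**Figure D3:**
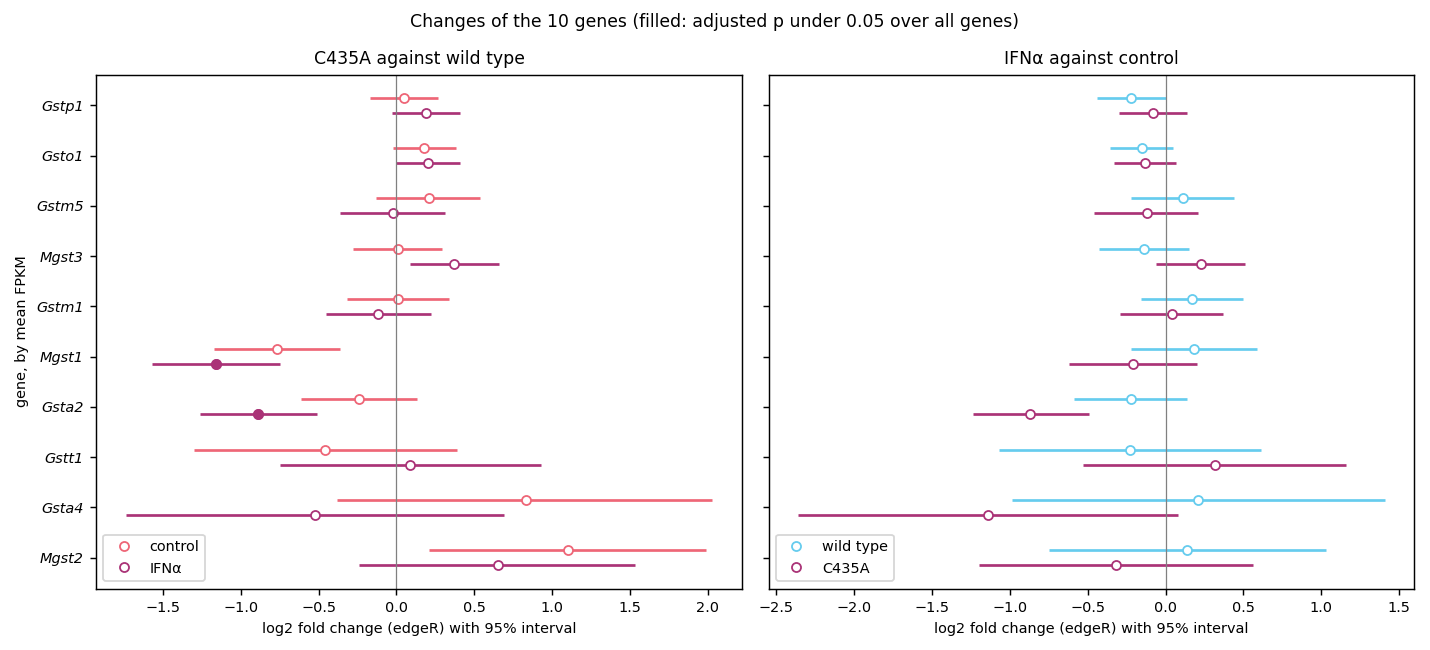
Fitted log2 differences of the 10 members with 95% intervals from edgeR: C435A minus wild type in control and IFNα cells (left), and IFNα minus control in wild type and C435A (right). Filled markers passed the adjusted threshold of 0.05, which only Mgst1 (-1.16) and Gsta2 (-0.89) did, in C435A against wild type after IFNα.

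Counted by comparison in edgeR, passing members were found only between the lines. The 6 comparisons share libraries and are not independent of each other. Beside each count stands the share of all genes called by the same rule; because these contrasts were known when the members were chosen, nothing is read from the difference between the members and all genes. In edgeR at an adjusted p under 0.05, 2 of 10 members were called over both treatments (2.8% of all 17590 genes tested) and 2 after IFNα (0.597%). None was called in control cells (0.165%), with IFNα in wild type (0.0227%), with IFNα in C435A (0.00569%) or in the interaction (0%). All calls were lower in C435A.

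At an unadjusted p under 0.05, edgeR counted 4 members over both treatments (18.1% of all genes), 3 between the lines after IFNα (13.7%) and 2 in control cells (10.7%). It counted 1 member each for IFNα in wild type (5.44%), IFNα in C435A (10.3%) and the interaction (5.17%). DESeq2 at an adjusted p under 0.05 called 3 members over both treatments (6.74%), 2 after IFNα (3.41%), 1 in control cells (1.36%) and 1 for IFNα in C435A (0.824%). It called 0 for IFNα in wild type (0.37%) and 0 for the interaction (0.0796%). Limma on log2(FPKM + 1), over 8 members and 10094 genes, called 2 over both treatments (3.93%), 2 after IFNα (0.555%) and 1 in control cells (0.347%). It called 0 in wild type with IFNα (0.0297%), 0 in C435A with IFNα (0.0297%) and 0 in the interaction (0%). The median log2 difference of the members over both treatments was 0.11, against 0 for all genes tested.

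**Figure D4:**
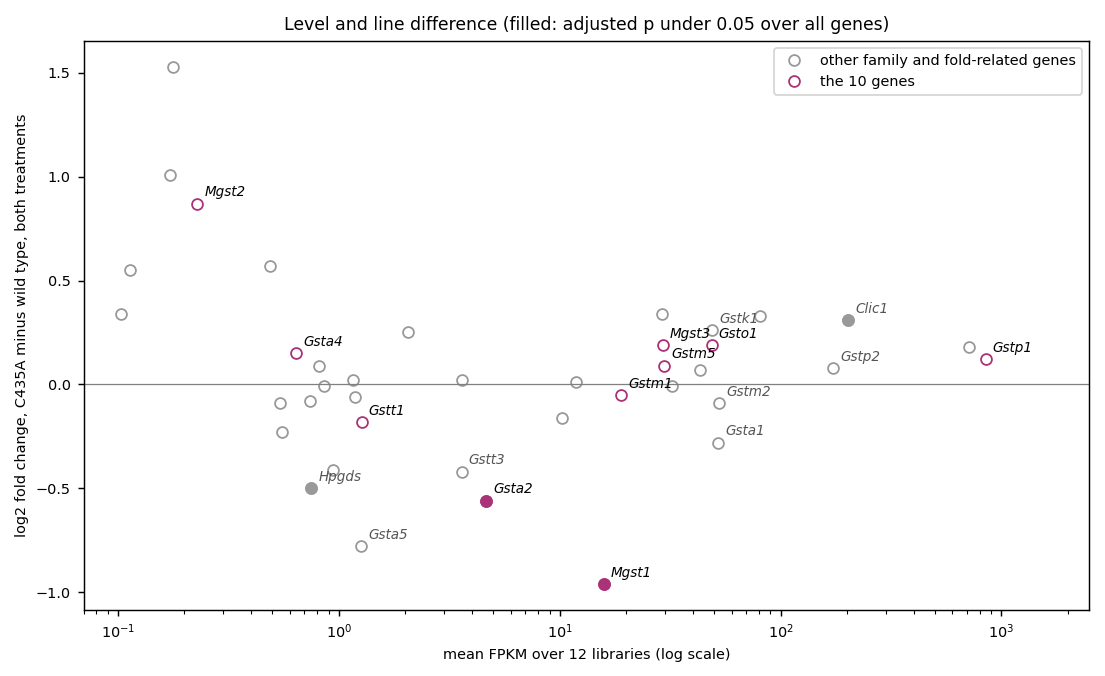
Mean FPKM over the 12 libraries (horizontal, log axis) against the log2 difference between C435A and wild type over both treatments (vertical) for the members and the rest of the family. Filled markers passed the adjusted threshold of 0.05; Mgst1 at 15.8 FPKM and -0.96 and Gsta2 at 4.63 FPKM and -0.56 lie lowest among the passing members, while Gstp1 at 848 FPKM lies at 0.12.

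Of 34 other listed genes with a transferase, transferase-like or MAPEG fold that the table holds, 30 were tested. Over both treatments, 1 rose and 1 fell in C435A in edgeR (2.8% of all genes called). At an unadjusted p under 0.05 there were 8 (18.1% of all genes), and DESeq2 called 6 (6.74%). Limma called 2 of 20, Gsta5 and Gstt3 (3.93%), both lower in C435A, with a median of -0.087 over all genes. Clic1, an intracellular chloride channel protein with a glutathione transferase fold, rose by 0.31 ± 0.08 on the log2 scale (adjusted p = 0.0485; mean 219 against 188 FPKM), and did not pass in limma (adjusted p = 0.0885). Hpgds, the sigma-class enzyme that makes prostaglandin D2, fell by 0.50 ± 0.13 (adjusted p = 0.0463; 0.594 against 0.906 FPKM). Their median log2 difference was 0.02.

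For the pathway around the transferases, list counts over both treatments stand beside the shares of all genes. Those shares were 2.8% in edgeR, 18.1% at an unadjusted p under 0.05, 6.74% in DESeq2 and 3.93% in limma. The lists were written with earlier results of these data known, so nothing is read from a difference between a list and all genes. Of the genes of glutathione synthesis and precursor uptake, 0 of 13 tested passed over both treatments, beside 1 at an unadjusted p under 0.05 and 1 in DESeq2, with a median log2 difference of -0.06. Of the recycling, reduction and breakdown genes, 0 of 22 passed (6 unadjusted, 2 in DESeq2), and of the glutathione peroxidases 0 of 6 (3 unadjusted, 2 in DESeq2). Of the MAPEG and leukotriene partners, 0 of 6 passed (1 unadjusted, 0 in DESeq2). Limma called 0 in each of these 4 lists. Of the export and phase II genes, 1 of 14 passed (4 unadjusted, 1 in DESeq2, 1 of 7 in limma): Abcg2, an efflux pump, fell by 0.74 ± 0.18 (adjusted p = 0.0441; 1.18 against 2.11 FPKM). Of 28 NRF2 regulators and targets, 1 passed in edgeR, beside 9 at an unadjusted p under 0.05 (3 higher, 6 lower), 5 in DESeq2 and 2 of 26 in limma. Nqo1, a quinone reductase, rose by 3.44 ± 0.24 (adjusted p = 3.39e-06; 7.53 against 0.727 FPKM). Hmox1, which breaks down heme, had a log2 difference of -0.33 ± 0.08, with an adjusted p of 0.0539 in edgeR, 0.00539 in DESeq2 and 0.0275 in limma. Gclm, a subunit of the enzyme that starts glutathione synthesis, had -0.38 ± 0.10, with an adjusted p of 0.062, 0.0109 and 0.06 in the same order. The median log2 difference of that list was -0.08 in edgeR. In limma, which had no TMM scaling, the median over all genes was -0.087.

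In the other comparisons, the 109 tested genes of these lists outside the members gave a single edgeR call each in control cells and after IFNα between the lines, both Nqo1. At an unadjusted p under 0.05 they counted 14 and 22, DESeq2 called 3 and 8, and limma 1 and 1. They gave 0 calls in edgeR for IFNα in wild type (7 at an unadjusted p under 0.05, 0 in DESeq2), for IFNα in C435A (19 and 0) and for the interaction (6 and 0). Limma called 0 in each of these 3 comparisons. The shares of all genes called in each comparison are those given beside the counts of members.

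Among the members themselves, the level of Mgst1 ran most like that of Gsta2: Pearson's r of log2(FPKM + 1) was 0.734 over the 12 libraries, which share the 4 groups. The next was 0.608 for Gstp1 and Gsto1, and the lowest was -0.692 for Gsta4 and Gstt1. Among genes of at least 5 FPKM on average, those most like Mgst1 were Idi1 (r = 0.94), Akr1c13 (0.94) and Atg5 (0.901). Those most like Gsta2 were S100b (0.94), Nipsnap2 (0.927) and Trpm1 (0.923). For Gsta4, whose spread within groups was the widest of the members, they were Tmsb4x (0.738), Ppia (0.711) and Ccdc43 (0.697). These are descriptions over libraries whose groups differ, and the highest of 4788 or 4789 correlations is high by selection.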

How the data were processed

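Libraries of poly(A) RNA were made per the labels' protocols, with second strands labelled and adapters that carry molecular identifiers. StringTie 1.3.4d, HISAT2 2.0.4 and the build GRCm38 are among the tools and builds in the submitters' processing notes, with UMI-tools, cutadapt 1.9, edgeR and DESeq2. The authors deposited 1 table with a read count and an FPKM per gene and library, per the file headers; positions are printed as deposited and differ from RefSeq positions on GRCm38.p6, so neither was converted. Of counts from 1 to 30, 33.6% were multiples of 4 (23.3% of whole numbers in that range), so counts may not be independent molecules. Counts were tested with edgeR 4.0.16 (R 4.3.3): TMM scaling, filterByExpr, quasi-likelihood fit of 4 group means over all 12 libraries, 6 two-sided comparisons, Benjamini-Hochberg adjustment over 17590 genes, threshold 0.05. FPKM were used for levels and for limma 3.58.1 on log2(FPKM + 1), and DESeq2 1.42.0 was an alternative. Intervals are 95%, from the t distribution. Differences on the log2 scale are fitted from scaled counts and need not equal ratios of mean FPKM. The tests were run on simulated data with known changes, of which they missed a part, so a p that misses the threshold does not show that groups were alike. Members, gene lists, motifs and tests were chosen with earlier results of these data known. All members are named. From each pathway list up to 4 genes past the threshold per comparison are named, and from the rest of the family up to 4 of at least 1 FPKM. Gsta5, Gstp-ps, Gstt3, Hmox1, Gclm and the targeted gene were named after their values were seen. Similar genes are the 3 of highest correlation, for the 3 members with the widest range of group means. The fit restricted to libraries with lung transcripts was chosen after seeing the data. Shared windows are exact matches between transcripts.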

Additional observations from a re-analysis of the deposited data

How the results depend on the processing

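Mgst1 over both treatments kept its call in all 23 alternatives, while the number of called members moved elsewhere. Between the lines after IFNα it was 2, but 1 without the low-count filter, 1 with the replicate block, 0 with the lung term, and 0 to 2 without 1 library. Over both treatments it was 2, and 1 to 3 without 1 library. In control cells it was 0, but 1 in DESeq2, 1 in limma with a pseudocount of 1 and 1 with 0.1. For IFNα in C435A it was 0, but 1 in DESeq2 and 1 among the 8 libraries with lung transcripts. Same-numbered libraries deviated with correlations of -0.142 to 0.0971, and 2 of 12 correlated best with their own number. No pairing was seen, but with so few libraries a group this check cannot exclude it. With the replicate block there were 59 calls over all genes after IFNα against 105 without it. Over both treatments there were 314 against 493, and in control cells 17 against 29. Leaving out 1 library gave 199 to 550 calls over all genes over both treatments. In control cells DESeq2 called 240 genes, and limma 35 with a pseudocount of 1 and 34 with 0.1. For IFNα in C435A, DESeq2 called 145 genes. Calls over all genes after IFNα were 49 with library totals as scaling, 70 without the low-count filter, 56 in limma and 599 in DESeq2. They were 100 with the lung term and 21 to 112 without 1 library. Among the 8 libraries with lung transcripts they were 1136, and 1135 against 1 for IFNα in C435A, where that group is a single library; the cause was not tested. The median of all genes between the lines in control cells, after IFNα and over both treatments was 0.005, -0.014 and -0.001 in the main fit. It was -0.091, -0.092 and -0.088 with library totals as scaling. In limma it was -0.089, -0.086 and -0.087 with a pseudocount of 1 and -0.112, -0.108 and -0.11 with 0.1. Without the FPKM filter it was -0.002, -0.006 and -0.006 in limma. The limma fits used FPKM without TMM scaling, and limma differences between the lines are to be read against these medians. Signs turned only for values that passed in no fit concerned, and the cause was not tested. For IFNα in wild type, the 8 libraries gave Mgst1 -0.09, Mgst2 -0.24, Gsta4 -0.36 and Gstm5 -0.09, the lung term gave Gsta4 -0.29, and leaving out 1 library gave Mgst2 -0.04 to 0.36, Gsta4 -0.08 to 0.61 and Gstm5 -0.03 to 0.25. For IFNα in C435A, the 8 libraries gave Gstp1 0.04 and Gstt1 -0.04, the lung term gave Gstm1 -0.01, and leaving out 1 library gave Mgst2 -0.89 to 0.02, Gstm1 -0.05 to 0.14 and Gstt1 -0.04 to 0.91. In control cells between the lines, Mgst3 was -0.08 with library totals, -0.01 without the filter, -0.02 at an FPKM of at least 5, -0.08, -0.09 and -0.08 in the limma fits, -0.01 with the lung term and -0.09 to 0.09 without 1 library. Gstm1 was -0.08, 0, -0.02, -0.08, -0.09 and -0.08 in the first 6 of these and -0.09 to 0.13 without 1 library, and Gstp1 was -0.04 with library totals and -0.05 in the limma fits. After IFNα, the 8 libraries gave Mgst2 -0.45 and Gstt1 -0.27, the lung term gave Gsta4 0.01 and Gstm5 0.05, and leaving out 1 library gave Gstm1 -0.21 to 0.03, Gstm5 -0.18 to 0.11 and Gstt1 -0.13 to 0.31. In the interaction, leaving out 1 library gave Gstm1 -0.24 to 0.02 and Gsto1 -0.03 to 0.06. Over both treatments, the 8 libraries gave Gstm1 0.03 and Gstm5 -0.05, and leaving out 1 library gave Gsta4 -0.08 to 0.35 and Gstm1 -0.11 to 0.02. Of all alternative values, 1246 kept direction and side of the threshold. Gsta4, Mgst2 and Gstt1 had the lowest counts of the members, 20 to 200 a library.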
